A study of Homo sapiens with 4 samples.

Results

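The effect of the MEK inhibitor trametinib in the presence of neobractatin (NBT), a natural compound isolated from Garcinia bracteata, was described by setting the library of cells given both compounds against the library of cells given NBT alone. Of 16834 genes in the deposited expression table, 11173 had at least 50 reads in at least 1 of these 2 libraries and were compared, and 11093 of the 11147 that matched RefSeq are protein coding. The study asked how the 2 compounds act together on pancreatic ductal adenocarcinoma (PDAC) cells, and this comparison shows what trametinib added once NBT was present. Sequencing on the BGISEQ-500 platform covered 4 cultures: a control, cells with 1 µM NBT, cells with 5 µM trametinib, and cells with 1 µM NBT plus 5 µM trametinib. Exposure lasted 12 h, every culture carries the genotype label WT, and each condition was 1 library, so variation between cultures was not measured and nothing below is checked by a replicate. A difference below is therefore a difference between 2 libraries, given without a p-value. The sums of the estimated read counts lay between 18776212 in the control library and 19614763 in the combination library, and the 10 most abundant genes took 6.45% to 7.17% of them. Counts were scaled to these sums, 0.5 reads were added, and the log2 ratio of the combination library over the NBT library was taken. Intervals in parentheses are 95% exact binomial (Clopper-Pearson) intervals of that ratio and cover counting error only.

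The sample titles name MIA PaCa-2, an established human PDAC line, for all 4 libraries, whereas the cell line entries read MIA PaCa-2 to MIA PaCa-5. MIA PaCa-2 is known for a homozygous deletion of CDKN2A, little E-cadherin and abundant vimentin, and the libraries went against this description. CDKN2A, which encodes the cell cycle inhibitor p16, was measured at 249 to 342 TPM (a level scaled to transcript length and to a fixed library sum). E-cadherin (CDH1) lay between 51.2 and 86.9 TPM, EPCAM between 209 and 242 TPM, and vimentin (VIM) between 11.5 and 26.4 TPM. The basal epithelial genes KRT5 (634 to 3123 TPM) and TP63 (32.7 to 63.0 TPM) were also present in every library. CDKN2A, CDH1, EPCAM, VIM, KRT5 and TP63 were chosen for this check after their values were seen, as was MTAP (13.2 to 19.9 TPM). Of 11 markers of other cell types in the table, 10 had at most 53 reads in the NBT and combination libraries, with 14 and 15 reads of PTPRC, 14 and 26 of PECAM1, and 0 and 0 of LUM. COL1A1 had 45, 27, 98 and 53 reads in the control, NBT, trametinib and combination libraries. The T cell gene CD3E had 0, 0, 55 and 29, so it had reads in both libraries with trametinib and in neither library without it. CD68 was the abundant one, with 1503 to 2400 reads. The mesenchymal marker SNAI2 lay between 68.2 and 94.2 TPM, TWIST1 between 9.72 and 11.4 TPM and ZEB1 between 1.04 and 2.61 TPM. The epithelial markers KRT7 (2.25 to 5.74 TPM) and MUC1 (1.84 to 6.29 TPM) had lower levels than CDH1. Epithelial genes (CDH1, EPCAM and KRT5) were thus expressed together with SNAI2. The cells are called below the cells labelled MIA PaCa-2.

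MEK1 and MEK2 are the kinases that phosphorylate and activate ERK, the last kinase of the RAS, RAF, MEK and ERK cascade. Active ERK enters the nucleus and drives a known set of genes, among them immediate early transcription factors, ETS factors of the PEA3 group, cyclin D1, and a layer of feedback inhibitors that restrain the cascade itself. In PDAC the cascade is commonly switched on, and blocking MEK removes this output within hours.

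Most genes differed little between the 2 libraries. The log2 ratio lay within 0.5 of 0 for 85.1% of the genes, with a median of 0.02, quartiles of -0.16 and 0.22, and a median half-width of the counting interval of 0.14. At least 2-fold higher with trametinib were 205 genes, 1.83% of those compared, and at least 2-fold lower were 227 genes, 2.03%. Of all genes compared, 53.9% had a ratio above 0. These percentages are the background against which the gene groups below are read. Past 4-fold there were 39 higher and 53 lower genes. The share past 2-fold depended on the number of reads. It was 10.5% among the 1471 genes whose higher count was under 200, 3.40% among the 4653 genes with 200 to under 1000 reads, and 2.38% among the 5049 genes with 1000 reads or more. Just inside the limit were 16 genes with a higher count of 50, and just outside it 22 genes with 49.

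**Figure D1:**
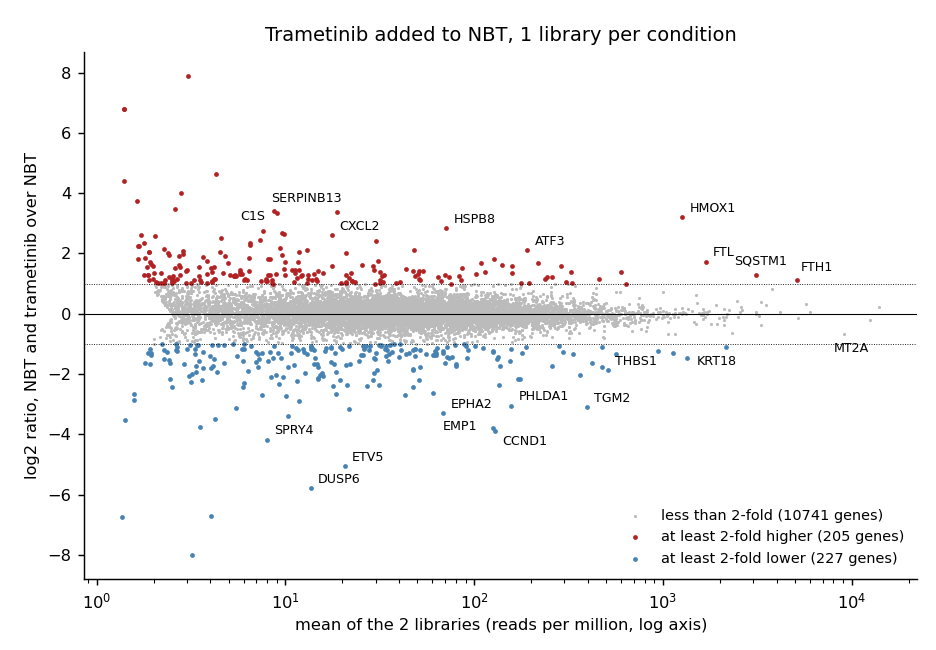
Each point is 1 of 11173 genes, with the mean of the NBT and combination libraries in scaled reads (CPM, reads over the library sum) on a log axis and the log2 ratio of the combination over NBT on the vertical axis; dotted lines mark 2-fold. Red (205 genes) and blue (227 genes) points are past 2-fold, HMOX1 stands out among abundant genes at 3.20 and DUSP6 lies at -5.79, and the points beyond 6 in either direction belong to genes with 0 reads in 1 library, whose ratios depend on the 0.5 reads added.

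Of the 15 largest losses among genes with at least 200 reads in 1 of the 2 libraries, DUSP6, SPRY4 and DUSP4 were feedback inhibitors of ERK, and ETV5 and ETV4 were ETS factors. DUSP6, the phosphatase that removes the activating phosphates from ERK in the cytoplasm, had 329 reads in the control library, 521 with NBT, 14 with trametinib and 9 with both. The combination over NBT ratio was -5.79 (-7.01 to -4.93) on the log2 scale, a 55.4-fold lower level and the largest loss among genes with at least 200 reads in 1 of the 2 libraries. Both libraries with trametinib were low and both without it were high. DUSP4, a nuclear ERK phosphatase, had 620 reads with NBT and 98 with both compounds (-2.67, -3.00 to -2.37). DUSP5, which also acts on ERK in the nucleus, had 689 and 134 (-2.37, -2.65 to -2.11). The phosphatases did not move as one family. Of 9 that were compared, 3 were at least 2-fold lower and 1 was higher, and the median was -0.15. DUSP7 had a ratio of -0.91 and DUSP14 one of -0.15. DUSP8, which prefers the stress kinases JNK and p38, was higher at 1.08 (0.87 to 1.29), and DUSP1, an immediate early phosphatase of stress kinases and ERK, had 431 reads with NBT and 848 with both (0.96, 0.79 to 1.13).

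Sprouty and SPRED proteins block the cascade upstream, between the receptors and RAF. All 6 of these genes that reached 50 reads were at least 2-fold lower in the combination library, with a median of -1.89 and a range from -4.18 to -1.28. SPRY4 had 169 reads in the control library, 295 with NBT, 14 with trametinib and 16 with both, a ratio of -4.18 (-5.04 to -3.49). SPRY1 went from 78 to 17 reads between the NBT and combination libraries, and SPRY2 from 205 to 68. SPRED1, which brings neurofibromin to RAS at the membrane, went from 623 to 137 (-2.19, -2.48 to -1.93). For each of the 6 genes the whole counting interval lay below 0.

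The ETS factors ETV4 and ETV5, of the PEA3 group, are textbook targets of ERK. ETV5 had 367 reads in the control library, 777 with NBT, 16 with trametinib and 23 with both (-5.06, -5.76 to -4.50). ETV4 had 1449 reads with NBT and 225 with both (-2.70, -2.91 to -2.50). ELK3 was the third member past 2-fold on the low side, at -1.22 (-1.35 to -1.10). The other end of this family was ELF3, an epithelial ETS factor, with 225, 94, 3502 and 417 reads in the control, NBT, trametinib and combination libraries (2.13, 1.81 to 2.47). The other 9 ETS genes lay between -0.65 and 0.57, and the median of all 13 was -0.18.

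The immediate early and AP-1 genes split. EGR1, a zinc finger factor that responds to growth factors within minutes, had 802 reads in the control library, 479 with NBT, 99 with trametinib and 117 with both (-2.04, -2.35 to -1.75). FOSL1, the AP-1 subunit Fra-1, was an abundant message at 746 TPM with NBT and 242 TPM with both (-1.64, -1.70 to -1.59). IER3 (-2.17) and MAFF (-1.04) were also past 2-fold. In the same library FOS had 102 reads against 84 with NBT (0.27, -0.16 to 0.70), although it had 14 reads in the trametinib library and 85 in the control. JUN had 2598, 3255, 1604 and 4619 reads in the control, NBT, trametinib and combination libraries (0.49, 0.43 to 0.56), so the combination held the highest value of the 4. ATF3, a stress-induced member of the same leucine zipper class, was past 2-fold on the high side, with 1405 reads with NBT and 6091 with both (2.10, 2.02 to 2.19). Of the 15 genes, 4 were past 2-fold lower, 1 was past 2-fold higher, and the median was -0.03 (-0.40 with a limit of 200 reads).

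Of 20 further genes read as ERK output, 10 were at least 2-fold lower, none was higher, and 18 were below 0, with a median of -1.04 (-0.83 with no limit on reads). CCND1 encodes cyclin D1, the partner of CDK4 and CDK6 at the entry to the cell cycle. It had 8472 reads in the control library, 4693 with NBT, 1315 with trametinib and 323 with both (-3.87, -4.04 to -3.71), a 14.6-fold lower level than with NBT and the lowest of the 4 libraries. EMP1, a membrane protein of epithelial cells, had 3946, 4570, 127 and 334 reads in the same order (-3.79, -3.95 to -3.63). EPHA2, an ephrin receptor kinase, had 3371, 2413, 268 and 247 (-3.30, -3.50 to -3.11). PHLDA1 had 5448 reads with NBT and 662 with both (-3.05, -3.17 to -2.94). The collagen receptor subunit ITGA2 was at -2.42 and the urokinase gene PLAU at -2.36. MYC, the growth-promoting factor whose message and protein depend on ERK, had 913, 1297, 170 and 586 reads (-1.16, -1.30 to -1.02). TRIB1 (0.25) and IL11 (0.41) were the members above 0.

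Promoter sequences of 3 of these genes are shown because their windows hold the elements through which serum factors, AP-1 or cAMP-responsive factors are known to act. Each is the 200 bases before the RefSeq start on GRCh38.p14, written 5′ to 3′ on the strand of the gene, with the matched element in capitals. In EGR1 (chr5:138465279-138465478, plus strand) the capitals mark a pair of CArG boxes, the binding element of serum response factor, that start 105 and 83 bases before the start site. In EMP1 (chr12:13196526-13196725, plus strand) they mark AP-1 elements (TGANTCA) that start 175 and 48 bases before it. In EPHA2 (chr1:16156070-16156269, minus strand) they mark a cAMP response element (TGACGTCA) 51 bases before it.
EGR1: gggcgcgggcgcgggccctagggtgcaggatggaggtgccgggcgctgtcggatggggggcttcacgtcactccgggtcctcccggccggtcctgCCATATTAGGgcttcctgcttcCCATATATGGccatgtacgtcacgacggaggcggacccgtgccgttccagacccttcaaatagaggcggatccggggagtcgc
EMP1: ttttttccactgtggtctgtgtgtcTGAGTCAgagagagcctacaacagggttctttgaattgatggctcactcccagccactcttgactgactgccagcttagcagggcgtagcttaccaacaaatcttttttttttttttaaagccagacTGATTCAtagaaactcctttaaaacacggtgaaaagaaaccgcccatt
EPHA2: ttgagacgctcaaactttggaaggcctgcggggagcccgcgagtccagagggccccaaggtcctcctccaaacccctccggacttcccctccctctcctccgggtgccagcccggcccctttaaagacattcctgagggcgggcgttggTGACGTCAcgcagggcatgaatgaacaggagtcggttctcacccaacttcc
A match is a description of letters, and none of these libraries measured binding.

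**Figure D2:**
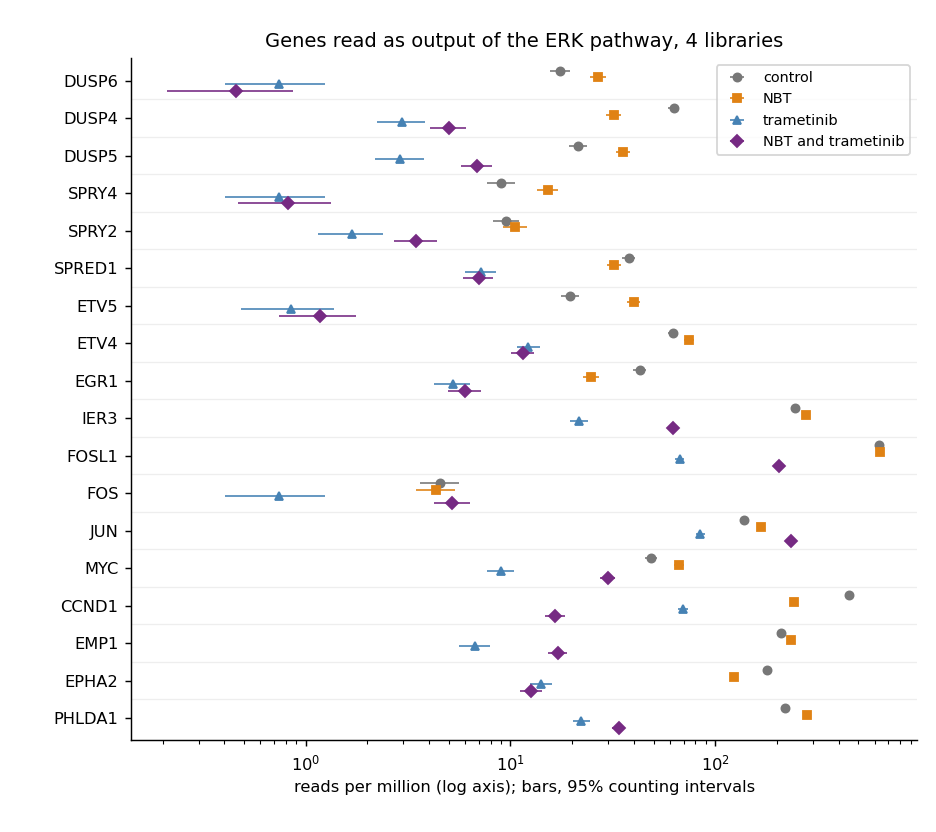
Scaled reads (CPM, log axis) of 18 genes read as ERK output in the control, NBT, trametinib and combination libraries, 1 library each, with exact 95% counting intervals as bars. For DUSP6, SPRY4, ETV5, ETV4, CCND1, EMP1, EPHA2 and PHLDA1 both libraries with trametinib lie to the left of both without it, whereas JUN (4619 reads) is highest in the combination library and FOS (102 reads) overlaps there with the control (85 reads) and NBT (84 reads).

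Of 5 ligands of the EGF receptor family 2 were at least 2-fold lower, and all 5 were below 0. Their median was -0.66, but it was -1.06 for those with at least 200 reads and -0.28 for all that had reads. HBEGF had 395 reads with NBT and 101 with both (-1.98, -2.31 to -1.66), and TGFA had 1544 and 456 (-1.77, -1.93 to -1.62). AREG, amphiregulin, stayed closer to its NBT level, at 1680 and 1463 reads (-0.21, -0.31 to -0.11). None of the 18 genes compared in the list of receptor tyrosine kinases was past 2-fold, and their median was 0.08. That list does not hold EPHA2 (-3.30), which is also a receptor tyrosine kinase and was counted above among the ERK output genes. EGFR had 14057 reads with NBT and 14555 with both (0.04, 0.00 to 0.07). ERBB3, a kinase-impaired receptor known to be raised when MEK is blocked, was at 0.57 (0.43 to 0.71), INSR at 0.64 and IGF1R at 0.32. The genes of the cascade itself also stayed within 2-fold, 19 of 19, with a median of 0.02. NRAS was at 0.39, and MAP2K1, which encodes MEK1, was at -0.33.

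Genes outside the fixed groups were also among the 15 largest losses with at least 200 reads. TGM2, tissue transglutaminase, which crosslinks matrix proteins, had 21035 reads in the control library, 13746 with NBT, 4084 with trametinib and 1616 with both (-3.10, -3.18 to -3.03). TNS4, a tensin of focal adhesions, had 761 reads with NBT and 85 with both (-3.17, -3.52 to -2.85). Also in this group were EVI2B (365 and 35 reads, -3.38), SH3TC2 (404 and 55, -2.88), PRRG3 (342 and 52, -2.72) and the ion channel gene TMEM63A (254 and 39, -2.70). For each of these 6 genes the combination library was lower than both libraries without trametinib.

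Matrix, integrin and laminin genes held the largest number of lower genes among the 29 lists. Of 32 compared, 12 were at least 2-fold lower and 2 were higher, 21 were below 0, and the median was -0.54 (-0.30 with a limit of 10 reads or with none). THBS1, thrombospondin 1, a secreted regulator of adhesion and of blood vessel growth, had 35644, 15574, 9858 and 4282 reads in the control, NBT, trametinib and combination libraries (-1.88, -1.92 to -1.83). The integrin subunits ITGB5 (-1.45), ITGA3 (-1.34) and ITGA6 (-1.06) and the laminin chains LAMA3 (-1.64) and LAMB1 (-1.20) were lower. The collagenase gene MMP1 was at -2.27, MMP14 at -1.25 and MMP2 at -1.15, together with TIMP1, an inhibitor of such enzymes, at -1.49. ITGB8 (1.04) and TGFBI (14 and 51 reads, 1.82) were higher. Genes read as output of YAP and TEAD, factors that respond to adhesion and cell shape, had a median of -0.28. Of these, CCN2 (-2.43) and the tissue factor gene F3 (11305 and 2798 reads, -2.03) were lower, and ANKRD1 (15 and 56 reads, 1.85) was higher.

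The simple epithelial keratins were lower as well. KRT18 had 38414 reads with NBT and 14049 with both (-1.46, -1.49 to -1.44), and its partner KRT8 had 57181 and 26811 (-1.11, -1.13 to -1.08). KRT7 was at -1.11 with 71 and 33 reads. EPCAM was at 0.03 (-0.04 to 0.10), CDH1 at 0.13 (0.05 to 0.21) and MUC1, a mucin of the apical membrane, at 0.72 with 83 and 138 reads. VIM, a mesenchymal marker, had 249 and 500 reads (0.99). The other mesenchymal markers compared did not share this rise, with 1520 and 1652 reads of SNAI2, 162 and 159 of TWIST1, and 168 and 134 of ZEB1. None of the 4 was past 2-fold, and their median was 0.03 (0.55 with a limit of 200 reads). With KRT8 and KRT18 in it, the summed level of the epithelial markers, 6 of 7 in the table, went from 6113 to 2769 TPM. In these bulk libraries fewer cells of a kind and less RNA per cell cannot be told apart. The summed level of 11 markers of other cell types went from 143 to 106 TPM, nearly all of it CD68, which carcinoma cells also express, and its part in any result was not tested.

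Losses were accompanied by higher messages of a stress group, led by heme oxygenase. HMOX1, the enzyme that opens the heme ring and releases iron, had 121 reads in the control library, 4825 with NBT, 382 with trametinib and 44631 with both (3.20, 3.15 to 3.24). The combination level was 9.17-fold above the NBT level and reached 2866 TPM. Ferritin stores the iron that this reaction frees. Its light chain FTL had 6983, 15244, 12998 and 50832 reads (1.72, 1.70 to 1.75), and its heavy chain FTH1 had 22786, 62854, 38760 and 138087 (1.12, 1.11 to 1.14). Both chains were highest in the combination library. Ferritin genes have processed pseudogenes, and how reads shared with these were divided is not known.

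NRF2 is the transcription factor that raises glutathione synthesis, thioredoxin and heme genes under oxidative or electrophilic stress. Of 26 genes of this group 24 had a ratio above 0, 7 were past 2-fold higher, none was past 2-fold lower, and the median was 0.61. GCLC, the catalytic subunit of the first enzyme of glutathione synthesis, had 2791 reads with NBT and 8518 with both (1.60, 1.53 to 1.66), while its partner GCLM was at 0.66. SRXN1, sulfiredoxin, had 2833 and 6643 reads (1.22, 1.15 to 1.28). SLC7A11, the cystine transporter, had 279, 2491, 739 and 5136 reads in the control, NBT, trametinib and combination libraries (1.03, 0.96 to 1.10). AKR1B10 (49 and 101 reads, 1.02) was just past 2-fold. The group was not uniform, since NQO1, often used as its index gene, was at 0.25 (0.21 to 0.29) and TXN at -0.19. ABCC3 was the lowest, at -0.77.

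Small heat shock proteins and inducible chaperones were also higher. Of 21 heat shock genes, 5 were past 2-fold higher and none was lower, although the median of the whole group was only 0.12. HSPB8, which works with BAG3 in disposing of misfolded proteins, had 153 reads in the control library, 339 with NBT, 875 with trametinib and 2445 with both (2.84, 2.67 to 3.01). DNAJB4 was at 1.74 (1.55 to 1.94) and HSPB1 at 1.38 (1.33 to 1.42). HSPA1A (1.22) and HSPA1B (1.17) encode nearly identical inducible HSP70 proteins, so the split of reads between them is uncertain. The constitutive chaperones HSPA8 (0.01) and HSP90AB1 (0.06) differed little, and the mitochondrial pair HSPE1 (-0.41) and HSPD1 (-0.29) was below 0. Among metal-binding genes, MT1F (1.39, 1.29 to 1.48) and the zinc exporter SLC30A1 (1.42, 1.28 to 1.58) were higher. MT2A, which took 1.12% of all counts with NBT, took 0.706% with both compounds (-0.66, -0.67 to -0.65).

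SQSTM1, the autophagy receptor p62, had 34880 reads with NBT and 86086 with both (1.29, 1.27 to 1.31). GABARAPL1, a ubiquitin-like protein of the autophagosome membrane, had 252, 999, 778 and 3245 reads in the control, NBT, trametinib and combination libraries (1.69, 1.58 to 1.79). These were the members past 2-fold among 31 lysosome and autophagy genes, of which 24 were above 0 and whose median was 0.22. WIPI1 was at 0.77, ULK1 at 0.75 and the lysosomal precursor PSAP at 0.69, while the lysosomal protease CTSB was at -0.25.

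Of 14 complement and secreted angiogenesis genes 4 were at least 2-fold higher and 2 lower, and not all genes named in this paragraph are in that list. Their median was 0.32, and it was 0.06 with a limit of either 10 or 200 reads in place of 50. CXCL2, a neutrophil-attracting chemokine, had 23 reads in the control library, 96 with NBT, 43 with trametinib and 594 with both (2.61, 2.30 to 2.94), and CXCL3 went from 11 to 69 reads between the NBT and combination libraries. TRAF1, an adaptor of TNF receptors, had 44, 52, 69 and 332 reads (2.65, 2.24 to 3.11). C1S, a protease of the first complement component, had 31 reads with NBT and 321 with both (3.34, 2.83 to 3.94), and its partner C1R had 34 and 142 (2.03, 1.50 to 2.63). The cytokine gene IL32 had 38 and 259 reads (2.74, 2.26 to 3.29). IL1B, which is not in the list, went the other way, with 151 reads with NBT and 13 with both (-3.50, -4.49 to -2.73). So did the vessel ligands APLN (53 and 8 reads, -2.67) and VEGFC (-1.26). Among genes too low to be compared, PGF had 41 and 8 reads (-2.30, -3.67 to -1.26) and CFB had 2 and 14 (2.52, 0.67 to 5.97).

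Promoter windows of 3 of the higher genes are given in the same way, 200 bases before the RefSeq start on GRCh38.p14. They were chosen because they hold an element of a factor class that answers to stress or cytokines. The capitals mark a heat shock unit (GAANNTTC) 88 bases before the start in HSPB8 (chr12:119178731-119178930, plus strand). They mark a cAMP response element 30 bases before the start in GABARAPL1 (chr12:10212677-10212876, plus strand), and overlapping kB sites that begin 78 and 77 bases before it in CXCL2 (chr4:74099196-74099395, minus strand).
HSPB8: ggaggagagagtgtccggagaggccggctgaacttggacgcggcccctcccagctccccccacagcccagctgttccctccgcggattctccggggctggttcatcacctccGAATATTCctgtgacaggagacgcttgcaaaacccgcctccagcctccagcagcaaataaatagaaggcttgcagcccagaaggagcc
GABARAPL1: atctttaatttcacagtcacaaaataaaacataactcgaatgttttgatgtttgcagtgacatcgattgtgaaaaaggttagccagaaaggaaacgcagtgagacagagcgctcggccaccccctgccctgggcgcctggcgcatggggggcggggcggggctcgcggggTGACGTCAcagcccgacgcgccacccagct
CXCL2: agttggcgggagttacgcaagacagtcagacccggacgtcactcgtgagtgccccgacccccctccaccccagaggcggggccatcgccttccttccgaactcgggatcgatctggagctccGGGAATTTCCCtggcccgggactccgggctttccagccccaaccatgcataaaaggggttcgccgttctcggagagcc
The shares of all windows that hold each of these 3 elements, from 1.85% for the cAMP response element upward, are given at the end.

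**Figure D3:**
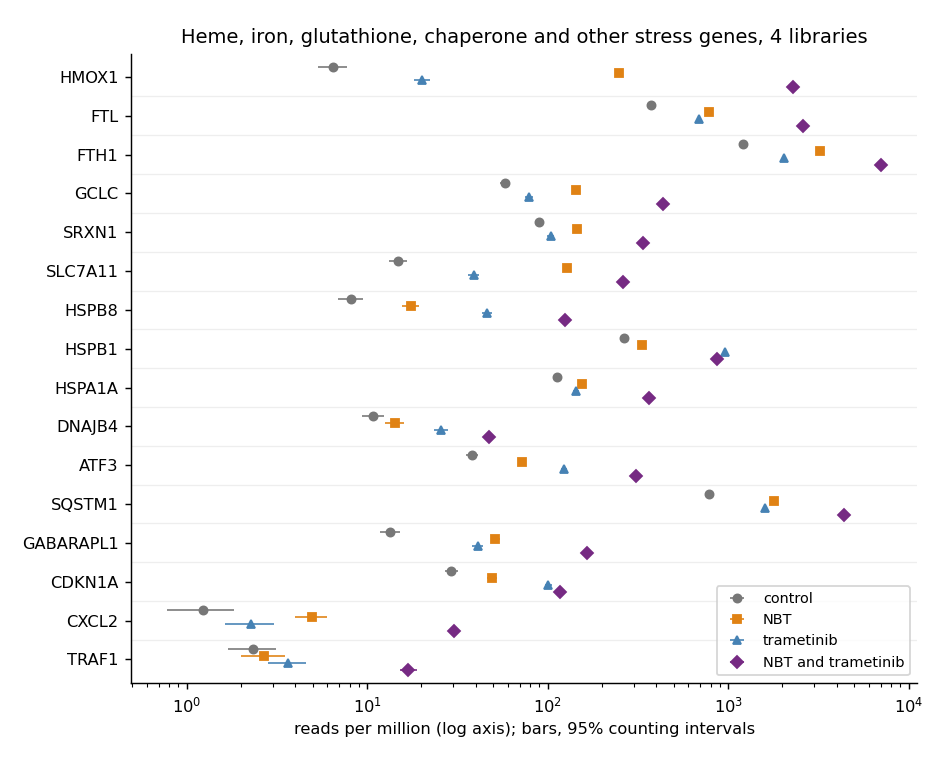
Scaled reads (CPM, log axis) of 16 genes of heme, iron, glutathione, chaperones, autophagy, growth arrest and cytokines in the control, NBT, trametinib and combination libraries, 1 library each, with exact 95% counting intervals as bars. HMOX1 (44631 reads), FTL, FTH1, GCLC, SRXN1, SQSTM1, CXCL2 and TRAF1 are highest with both compounds, while for HSPB1 the trametinib library (18316 reads) and the combination library (16947 reads) lie close together.

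The other large gains came from genes of varied function. SERPINB13, a protease inhibitor of squamous epithelium, had 36 reads in the control library, 29 with NBT, 751 with trametinib and 313 with both (3.40, 2.87 to 4.02). WNT10A, a WNT ligand, had 128, 44, 1345 and 244 reads (2.44, 1.99 to 2.96). The remaining genes were ZSCAN31 (64 reads with NBT and 669 with both, 3.36), LURAP1L (50 and 325, 2.68), MAP2 (184 and 1001, 2.43), ANO2 (41 and 214, 2.36), SYNGR3 (43 and 211, 2.27) and KIAA0319 (65 and 300, 2.18). MAP2 is a microtubule protein of neurons, and ZSCAN31 is a zinc finger factor. All genes named in this paragraph were also higher with trametinib than in the control, LURAP1L on only 13 and 3 reads.

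Among 19 genes of the entry phase, CCND1 (-3.87) and E2F1 (832 and 341 reads, -1.30, -1.49 to -1.12) were past 2-fold lower, and the inhibitors CDKN1A and CDKN2B were past 2-fold higher. Of the 19 genes, 14 were below 0 and the median was -0.25. For trametinib without NBT, 13 of them were above 0 and the median was 0.10. CDKN1A, which encodes p21, had 550, 958, 1907 and 2294 reads in the control, NBT, trametinib and combination libraries (1.25, 1.14 to 1.36). CDKN2B, which encodes p15, had 106, 71, 426 and 253 (1.81, 1.44 to 2.22). None of the 37 DNA replication genes was past 2-fold, but 35 were below 0, with a median of -0.37 against 0.02 over all genes. Of all genes compared, 53.9% were above 0. PCNA, the sliding clamp of DNA polymerase, had 2182 reads with NBT and 1281 with both (-0.78, -0.88 to -0.68), and MCM3, a subunit of the replicative helicase, had 6378 and 3736 (-0.78, -0.84 to -0.73). CDC6, which loads that helicase, was an exception at 0.09. Of the 32 mitosis genes none was past 2-fold, 26 were above 0 and the median was 0.13, from MAD2L1 at -0.40 to CDC25B at 0.55. For CDK1, at 0.05 (-0.06 to 0.15), and CCNA2, at 0.01, the interval held 0.

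Ribosome biogenesis depends on MYC and growth signals. Of 35 genes 34 were below 0, none past 2-fold, with a median of -0.27. URB2 was the lowest at -0.59 and PPAN the highest at 0.02. NCL, nucleolin, had 13856 reads with NBT and 10884 with both (-0.36, -0.40 to -0.33), and MYBBP1A was at -0.45. In the trametinib library against the control, the same 35 genes had a median of -0.52 and none was above 0. With 1 library a side, a shift of this size cannot be told apart from variation between cultures.

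PI3K and AKT were of interest to the study. Of 27 genes of this pathway with mTOR, 2 were past 2-fold lower and none was higher, the median was -0.01, and 15 were below 0. INPP4B, a lipid phosphatase that removes a phosphate from PI3K products, had 958, 882, 191 and 170 reads in the control, NBT, trametinib and combination libraries (-2.38, -2.63 to -2.15). IRS1, the insulin receptor adaptor, had 706 reads with NBT and 340 with both (-1.07, -1.26 to -0.88). AKT1 had 2899, 2866, 2829 and 2431 reads (-0.25, -0.33 to -0.17), lowest in the combination library but within 2-fold of the other 3. AKT2 was at -0.01 (-0.10 to 0.07). RICTOR, the defining subunit of mTOR complex 2, was at 0.03, and MTOR at 0.01. SESN2, a stress-induced inhibitor of mTOR complex 1, was at 0.55.

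Of 16 BCL2 family genes 3 were at least 2-fold lower and none was higher. BCL2L1, which encodes BCL-XL, had 2982, 3802, 1311 and 1411 reads in the control, NBT, trametinib and combination libraries (-1.44, -1.53 to -1.35). BCL2 had 124 reads with NBT and 61 with both (-1.03, -1.50 to -0.58), and MCL1 was at -0.62 (-0.68 to -0.57). BNIP3L, a receptor for removal of mitochondria, was at -1.36. The BH3-only killers BBC3 (166 and 323 reads) and BIK (33 and 65 reads) were each at 0.95, just under 2-fold, and BCL2L11, which encodes BIM, was at 0.04 (-0.20 to 0.28). BMF, also BH3-only and too low to be compared, had 5 and 29 reads (2.41, 1.14 to 4.25). The median of the 16 genes was -0.05. None of 20 caspase, gasdermin and related genes was past 2-fold, and their median was 0.02. Too low to be compared were the gasdermin genes GSDMC (23 and 8 reads, -1.48, -2.91 to -0.33) and GSDMA (15 and 17, 0.16), and CASP1 (4 and 2, -0.86). GSDME, a gasdermin that opens membrane pores once it is cleaved, had 1351, 1849, 898 and 1549 reads (-0.27, -0.37 to -0.17). CASP9 had 234 reads with NBT and 236 with both, and BIRC3 was the lowest of the group at -0.56. Cleavage of these proteins is not visible in RNA.

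The endoplasmic reticulum stress genes HSPA5 and DDIT3 had more reads with NBT than in the control. None of 25 unfolded protein response genes was past 2-fold, but 20 were above 0 and the median was 0.24. HSPA5, the main chaperone of the endoplasmic reticulum, had 9310, 61352, 8012 and 76120 reads in the control, NBT, trametinib and combination libraries (0.30, 0.28 to 0.31). EIF2AK3, which encodes the stress sensor PERK, was at 0.92 (0.75 to 1.08), and DNAJB9 at 0.82. Among 27 targets of ATF4, the factor that answers to amino acid shortage and to PERK, 23 were above 0, none was past 2-fold, and the median was 0.13. DDIT3, which encodes CHOP, had 196, 1298, 443 and 2589 reads (0.98, 0.89 to 1.08), and ASNS was at 0.09 (0.05 to 0.14).

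**Figure D4:**
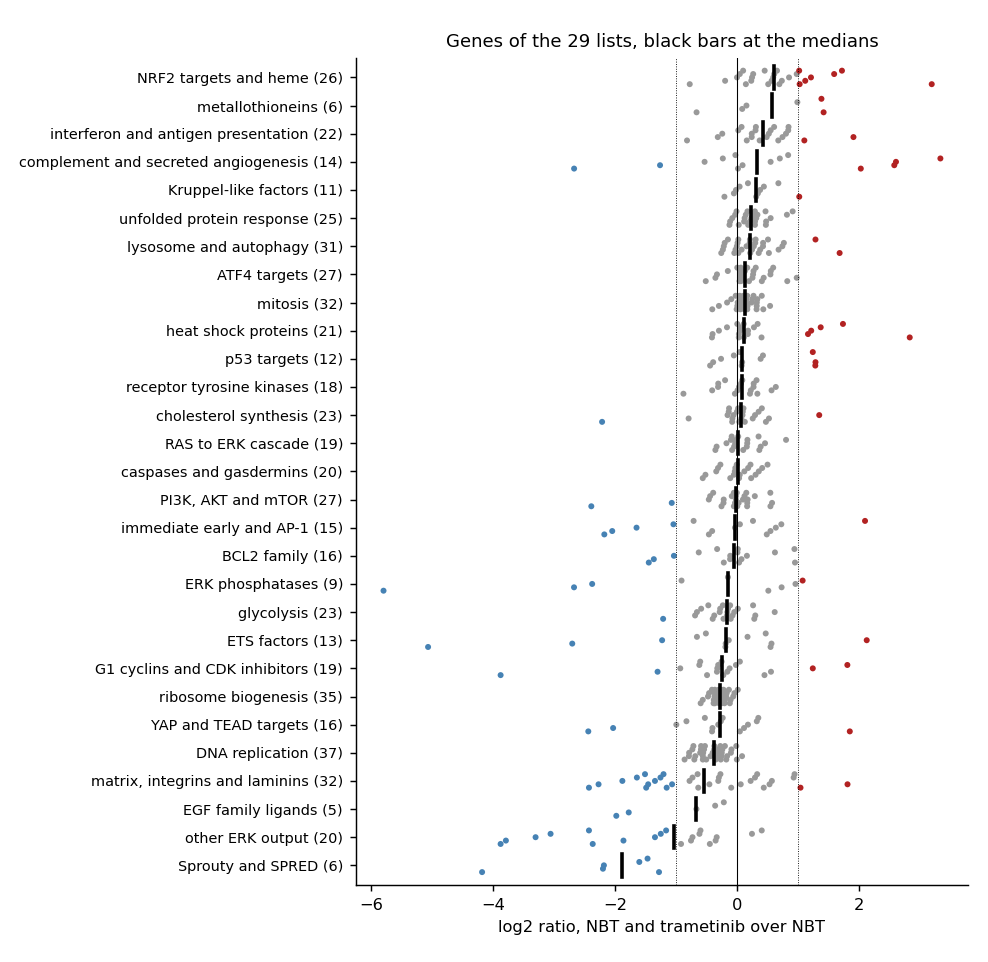
Log2 ratios of the combination over NBT for the genes of 29 lists (1 point per gene, number of genes in parentheses, black bar at the median), ordered by median; red and blue points are past 2-fold, and dotted lines mark it. Medians run from -1.89 for Sprouty and SPRED genes to 0.61 for NRF2 targets and heme, and most groups centre near 0.

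The same drug was also given without NBT, and the trametinib library was set against the control library. This pair shares no library with the first. Of 11222 genes with at least 50 reads in at least 1 of the 2, 362 (3.23%) were at least 2-fold higher and 261 (2.33%) lower, with a median of 0.06. Over the 11028 genes past the limit in both pairs, the 2 log2 ratios had a Pearson r of 0.72 and a Spearman rho of 0.63 across genes, which are not independent replicates. Their SD was 0.46 with NBT and 0.53 without it. Of 217 genes at least 2-fold lower with NBT, 153 (70.5%) were also at least 2-fold lower without it, and these are 60.2% of the 254 that were lower without NBT. Of 167 genes at least 2-fold higher with NBT, 114 (68.3%) were also higher without it, and these are 39.3% of the 290 that were higher without NBT. The 290 genes had a median of 1.34 without NBT and 0.88 with it. The 254 genes had a median of -1.53 without NBT and -1.19 with it. The genes were selected in the pair without NBT, and selection in a pair favours extreme values in that pair.

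Most Sprouty, SPRED and further ERK output genes were below 0 in both pairs. Of the 20 further ones, 10 were at least 2-fold lower with NBT and 13 without it, while TRIB1 and IL11 were above 0 with NBT. Sprouty and SPRED genes had a median of -2.44 without NBT beside -1.89 with it, and the further ERK output genes had -1.45 beside -1.04. ETV5 was at -4.49 and -5.06, SPRY4 at -3.56 and -4.18, and EPHA2 at -3.66 and -3.30, and the interval of the difference held 0 for ETV5 (-1.50 to 0.35) and SPRY4 (-1.67 to 0.44). For other genes the values were further apart. The difference, as the log2 ratio with NBT minus that without, reached 1 for 76 genes (0.689%) and -1 for 97 genes (0.88%), and intervals of a difference are approximate normal intervals from the 4 counts. In the immediate early group 6 of 15 genes had a difference of at least 1 and none had one of -1 or below. FOS differed by 2.84 (1.93 to 3.74), FOSL1 by 1.60 (1.50 to 1.70), IER3 by 1.32 (1.15 to 1.49) and JUN by 1.20 (1.09 to 1.31). MYC was at -2.43 without NBT and -1.16 with it, a difference of 1.28 (1.00 to 1.55). DUSP4 was at -4.39 and -2.67, and DUSP1 at -0.50 and 0.96. CCND1 went the other way, at -2.70 without and -3.87 with NBT (difference -1.17, -1.35 to -0.99), as did DUSP6, which had few reads left in either trametinib library (-1.27, -2.47 to -0.08).

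Among the higher genes, HMOX1 was at 1.64 without NBT and 3.20 with it, a difference of 1.56 (1.26 to 1.85). GCLC was at 0.45 and 1.60 (difference 1.15, 1.02 to 1.28), and FTL at 0.88 and 1.72 (0.84, 0.79 to 0.89). SLC7A11 had the larger ratio without NBT. The list of NRF2 targets and heme genes had a median of 0.44 without NBT and 0.61 with it. In that list 3 genes had a difference of at least 1. TRAF1 had one of the largest differences of all, 2.02 (1.33 to 2.71). CXCL2 was under the 50-read limit in the pair without NBT. HSPB8 (2.50 and 2.84), C1S (3.50 and 3.34), IL32 (2.82 and 2.74) and GABARAPL1 (1.61 and 1.69) had ratios within 0.5 of each other in the 2 pairs. DNA replication genes were at a median of -0.13 without NBT and -0.37 with it, and E2F1 at -0.10 and -1.30 (difference -1.19, -1.41 to -0.97). The unfolded protein response genes had medians of -0.10 and 0.24.

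Most of the largest differences below 0 were in genes that were far above the control with trametinib alone and much lower with both compounds. KRT17, a keratin of stratified epithelium, had 2946 reads in the control library, 2420 with NBT, 19093 with trametinib and 4398 with both, a difference of -1.83 (-1.92 to -1.74). ELF3 had a difference of -1.81 (-2.19 to -1.44). The placental alkaline phosphatase gene ALPP had 173, 73, 1585 and 119 reads (-2.49, -2.97 to -2.01), and shares reads with close copies. FGF1, a growth factor, had 79, 47, 609 and 77 (-2.23, -2.85 to -1.61), and MXRA5 had 376, 166, 1748 and 213 (-1.86, -2.19 to -1.52). In each of these 5 genes the trametinib library was the highest of the 4 and the combination library lay far below it. IL1B differed by -2.73 (-3.57 to -1.88), with 282, 151, 166 and 13 reads. Above 0, DOK7 had 245, 195, 4 and 40 reads (3.50, 2.07 to 4.93) and GPAT3, an enzyme of lipid synthesis, 281, 479, 48 and 297 (1.85, 1.36 to 2.34).

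**Figure D5:**
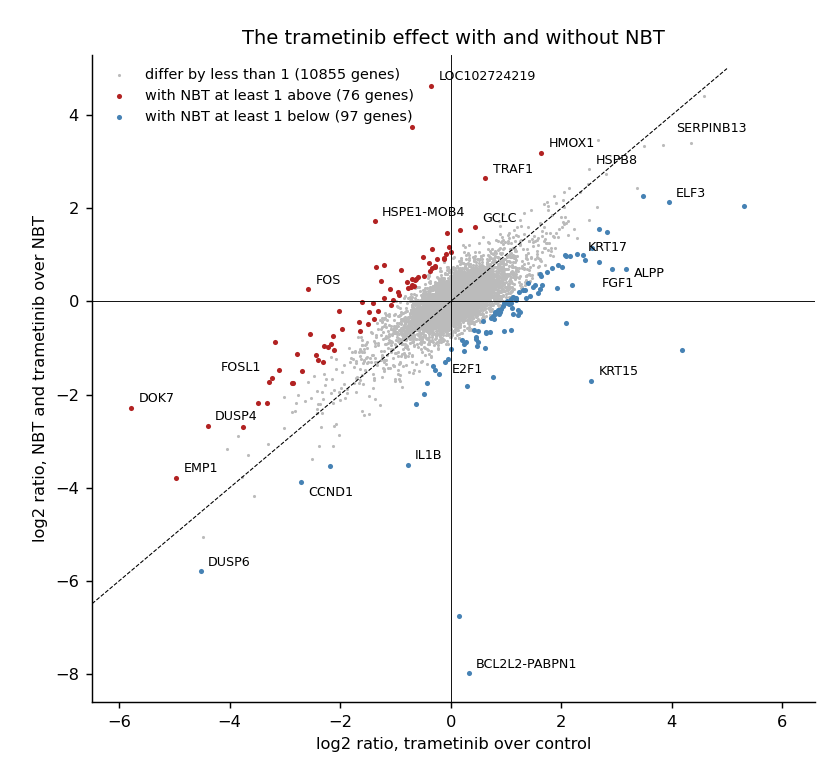
Each point is 1 of 11028 genes, with the log2 ratio of trametinib over control on the horizontal axis and that of the combination over NBT on the vertical axis; the dashed line marks equal values. Red points (76 genes) lie at least 1 above the line and blue points (97 genes) at least 1 below it, with FOS, HMOX1 and TRAF1 above, KRT15, IL1B and ELF3 below, and most ERK output genes in the lower left.

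Several of the most extreme values rest on genes that share reads with others, or on genes without reads in a library, and are uncertain. Read-through genes, which join neighbouring genes, made up 45 of the genes compared and 8 of those past 2-fold. BCL2L2-PABPN1 had 125 reads with NBT and 0 with both, at least 42.0-fold lower, while its components BCL2L2 (0.02) and PABPN1 (0.03) differed little. With 0 reads in the NBT library, CDRT4 (119 reads with both) was at least 39.3-fold higher, and C4A and CD7 (55 reads each with both) were at least 18.2-fold higher. POTEJ, with 53 reads and 0, was at least 17.8-fold lower. These bounds use a floor of 3 counts per library, which corresponded to 0.153 to 0.160 CPM. U2AF1L5 (444 and 1249 reads, 1.48) and its near-identical copy U2AF1 (2127 and 1311 reads, -0.71) went in opposite directions. LOC102724219 had 306, 6, 242 and 162 reads in the control, NBT, trametinib and combination libraries, and RGPD5 (172, 150, 75 and 261) and SULT1A4 (321, 333, 79 and 290) also belong to families of near-identical copies.

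The promoter windows of the genes past 2-fold were compared with those of the other genes over 300 bases, 250 before to 50 after each RefSeq start on GRCh38.p14, on both strands. Of the genes compared 9239 had at least 1 window. The ETS element CCGGAAG was in 3.86% of 233 windows of the higher genes and 5.86% of 256 windows of the lower genes, against 18.7% of 13005 windows of genes within 2-fold and 10.3% of all 35116 windows in the table. The AP-1 element TGANTCA was in 10.7% of windows of the higher and 10.2% of the lower genes, against 5.04% within 2-fold and 7.71% of all windows. A TATAAA box was in 11.6% and 10.5%, against 5.72% and 11.5%. The heat shock unit GAANNTTC was in 8.58% of windows of the higher and 4.30% of the lower genes, against 4.68% and 6.77%, and the tail-to-tail unit TTCNNGAA in 6.44% and 5.86%, against 6.16% and 7.74%. The antioxidant response core TGACNNNGC differed little, at 14.2% and 13.3% against 14.5% and 13.3%, as did the cAMP response element, at 2.58% and 2.73% against 2.91% and 1.85%. The kB site was in 14.6% and 12.5% of windows, against 13.2% and 11.3%, and the CArG box in 2.58% and 1.56%, against 1.05% and 1.29%. Median GC content was 62.7% in windows of the higher genes, 63.5% in the lower and 65.0% in the others. Windows of 1 gene overlap, the element groups differ in base composition, and these shares are a description without a test.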

How the data were processed

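RNA of 4 cultures was sequenced, 1 library per condition. The labels describe random priming after removal of bacterial ribosomal RNA, and the submitters' processing notes list Bowtie2 2.2.5, RSEM 1.2.8 and hg38. The authors made an estimated count per gene and per transcript from the aligned reads and deposited it without normalization. They also deposited TPM, scaled by the authors to length and to a fixed sum, and FPKM, which was not used. The counts were not whole for 53.9% of the 16834 genes, as RSEM divides reads between genes and transcripts that share them, so values of near-identical copies and read-through genes depend on that division.

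Conditions were read from each library's title and treatment entry. Counts were rounded and scaled to library sums (18776212 to 19614763), 0.5 reads were added and log2 ratios were taken for every gene that reached 50 counts in either library of a pair. A gene was called past 2-fold (a log2 ratio of 1 or more in size, as in the study's methods), with no p-value, since a test of 2 libraries does not compare conditions. Intervals (95%) are Clopper-Pearson and cover counting error only, since each condition was 1 library. They take each read as an independent molecule, which PCR reads are not. They were tested on simulated independent counts, which hold neither PCR copies nor reads divided between genes, so that test does not check them for these data. A gene at 0 was given a bound from a floor of 3 counts. Named genes were the 15 largest rises and falls among genes whose higher count reached 200, the genes of the lists, and the 8 largest differences of the trametinib effects in each direction among genes with at least 200 counts in 1 of the 4 libraries, and FOS and other list genes below that count are named from the lists. Genes, lists (29 pathway and 3 marker lists) and comparisons were chosen with earlier results of these data known. Of 655 list genes 651 were in the table. PDGFRA, COL5A1 and CXCL1 were not analysed here, nor were KRT19 and 7 markers of other cell types.

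Alternatives were edgeR 4.0.16 TMM factors, DESeq2 1.42.0 size factors, deposited TPM with a pseudocount of 0.1, 5 added reads, summed transcript counts, limits of 10, 200 and no counts, a log2 limit of 2, and calling only where the whole interval was past the fold. Promoters came from RefSeq (GRCh38.p14). Software was R 4.3.3 and Python 3.11.15 with numpy 2.4.6, pandas 2.3.3, scipy 1.17.1 and matplotlib 3.10.9.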

Additional observations from a re-analysis of the deposited data

Results flagged for a closer look

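For 3 genes trametinib was accompanied by a change past 2-fold in opposite directions with and without NBT, and none of these differences was tested, since each rests on 4 single libraries. KRT15, a keratin of basal epithelial cells, had 651 reads in the control library, 330 with NBT, 3846 with trametinib and 102 with both, so the log2 ratio was 2.55 without NBT and -1.70 with it, a difference of -4.25 (-4.59 to -3.91, counting error only). TNFAIP8L2-SCNM1, a read-through gene, had 3, 115, 64 and 56 reads in the same order, a difference of -5.24, and its control count of 3 makes the ratio uncertain. HSPE1-MOB4, also a read-through gene, had 473, 90, 184 and 301 reads, a difference of 3.10, whereas its components were at -0.41 with and 0.23 without NBT (HSPE1) and at -0.27 and 0.48 (MOB4).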

How the results depend on the processing

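Each condition was 1 library, so no replicate could be left out. No paired analysis was possible because each condition had a single library. The number of genes past 2-fold stayed within 1.5 times of the reported one under TMM factors (186 higher and 236 lower), size factors (194 and 235), TPM (209 and 213), 5 added reads (186 and 217) and summed transcript counts. Limits moved it, since they change which genes are counted. With a limit of 10 counts there were 493 higher and 382 lower genes with NBT, 740 and 392 without it, and 249 and 399 differences past 1 above and below 0. With no limit these were 1645, 1045, 1918, 1038, 937 and 1210. A limit of 200 counts left 114 higher genes with NBT, 201 without it, and 42 and 38 differences. A log2 limit of 2 left 39, 53, 68, 78, 9 and 12, and asking for the whole interval left 108 higher with NBT, 195 without it, and 28 and 25 differences. The share of higher genes among those past 2-fold was 47.5% as reported and 61.2% with no limit.

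Of 103 named genes past 2-fold, 100 remained so with TMM factors, 102 with size factors and with TPM, and 101 with 5 added reads. Those that did not were AKR1B10, KLF6, SLC7A11, ITGB8 and BCL2, each near 2-fold. List medians close to 0 changed sign: the RAS to ERK cascade with TMM (-0.0094) and size factors (-2.3e-05), caspases and gasdermins with TMM (-0.014), size factors (-0.0050) and no limit (-0.00083), PI3K, AKT and mTOR with TPM (0.030), the BCL2 family (0.011) and markers of other cell types (-0.51) with a limit of 200, and immediate early genes with no limit (0.051). Other medians moved without a change of sign: unfolded protein response genes to 0.32 with TPM, matrix genes to -0.30 with a limit of 10 or none, immediate early genes to -0.40 and EGF ligands to -1.06 with a limit of 200, EGF ligands to -0.28, further ERK output to -0.83 and metallothioneins to 0.16 with none, complement genes to 0.06 with 10 or 200 and 0.09 with none, and mesenchymal markers to 0.55 with 200 or none. The cause was not tested. Depth limits genes under 200 reads, of which 10.5% were past 2-fold.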

Other observations

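Of 22 interferon and antigen presentation genes compared, 19 had a ratio of the combination over NBT above 0 (53.9% of all genes did), 2 were past 2-fold, and the median was 0.43 beside 0.62 for trametinib without NBT. IFIT2 had 22 reads with NBT and 85 with both (1.91, 1.25 to 2.68), IFIT3 had 31 and 68 (1.11, 0.49 to 1.78), and NLRC5, an activator of MHC class I genes, was at 0.84 (0.69 to 1.00). HLA-E was at 0.53 and HLA-B at 0.56. OAS3 was the lowest, with 1471 and 843 reads (-0.82, -0.94 to -0.69).

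The 23 cholesterol genes compared had a median of 0.07 with NBT and 0.55 without it. TM7SF2, a sterol reductase, was at 1.35 (1.05 to 1.67), and HMGCS1, the first enzyme of the mevalonate route that is regulated by sterols, at 0.48 with NBT and 1.17 without.

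Of 23 glycolysis genes 18 were below 0, with a median of -0.16 beside -0.07 without NBT. LDHA had 37054, 25575, 33889 and 16065 reads in the control, NBT, trametinib and combination libraries (-0.68, -0.71 to -0.66), PKM was at -0.65, and the glucose transporter gene SLC2A3 at -1.21 (-1.40 to -1.02). Of 12 targets of p53, CDKN1A (1.25), BTG2 (1.29) and GADD45A (1.29) were past 2-fold higher, while MDM2 was at 0.09 and TNFRSF10B, a death receptor, at -0.44. The 12 genes had a median of 0.08. Among 11 Kruppel-like factors, KLF6 (2261 and 4641 reads, 1.02) was past 2-fold, the median was 0.32, and KLF2 was at -0.90 without NBT and 0.68 with it, a difference of 1.58 (1.22 to 1.94). GDF15, a secreted stress protein, had 100, 862, 47 and 1047 reads (0.27 with NBT and -1.09 without).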
